A study of Caenorhabditis elegans with 2 samples.

Results

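The HIF-1 peaks of 8 Caenorhabditis elegans genes of the oxidative stress and insulin pathways were read out of 4 deposited peak lists. The genes were the regulators skn-1, wdr-23, daf-16, daf-2 and ftt-2 and the readout genes gst-4, gcs-1 and sod-3, out of 19985 protein-coding genes annotated. The genes were chosen by name with the peak positions and signal values of these data already known, so their peaks are a description and were not tested. Every summit from 5000 bp upstream of the gene start to 1000 bp past the gene end was taken. This gave 3 of the 631 summits of the thresholded list, 21 of the 6541 in the relaxed list of the pooled reads, 41 of the 13935 in the list of replicate 1 and 44 of the 13823 in that of replicate 2. A summit was in the window of 5 of the 8 genes in the pooled list and of 6 in each replicate list, against 39.6%, 65.0% and 65.3% of protein-coding genes. The pooled and replicate lists hold background besides peaks, so a summit found in them alone need not be a site of binding.

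The measurement was chromatin immunoprecipitation sequencing (ChIP-seq), in which DNA bound by a protein is pulled down with an antibody and sequenced, in 1 group of 2 biological replicates. Each was made of whole hermaphrodites of strain OR3350 in the fourth larval stage, 55 h after synchronisation by starvation of first-stage larvae hatched after bleaching. The worms carried a stable transgene for HIF-1, the hypoxia-inducible factor, with GFP and FLAG at its C-terminal end, and the pull-down used an antibody against GFP. The labels name no oxygen condition, stressor or untagged group, so conditions cannot be compared, and a peak in whole animals does not say in which tissue the factor sat. Both replicates came from the same transgenic line. Signal values are the authors' own, from peak calling with 1 control. Their scale is not stated, the depth is unknown, and values are compared only between peaks of the same list, with ranks given across lists.

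SKN-1 is the worm relative of the mammalian NRF factors and switches on detoxification and glutathione genes when it escapes degradation. WDR-23 is the substrate receptor of a CUL-4 and DDB-1 ubiquitin ligase that keeps SKN-1 low, and gst-4, a glutathione S-transferase gene, and gcs-1, which encodes the enzyme of the first step of glutathione synthesis, are its usual readouts. DAF-16 is the FOXO factor of the worm. It is held in the cytoplasm when the insulin receptor DAF-2 signals, partly through the adaptor FTT-2, which binds its phosphorylated form, and sod-3, a mitochondrial superoxide dismutase gene, is a common readout of it. HIF-1 binds DNA at sites with the core ACGTG or GCGTG.

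The DNA under the strongest peaks is given first, since that core was at the strongest skn-1 summit but not at the second skn-1 summit or the ftt-2 summits. Sequences are of the plus strand of ce11 from the RefSeq copy of the assembly, 5′ to 3′, with ACGTG or GCGTG in capitals where either strand carries it. The first is the strongest skn-1 summit with 50 bases to either side (chrIV:5656104-5656204), and the next is the second skn-1 summit (chrIV:5657303-5657403). The third is the ftt-2 promoter from 50 bases before one summit to 50 bases past the other (chrX:11605966-11606265).
skn-1 strongest summit: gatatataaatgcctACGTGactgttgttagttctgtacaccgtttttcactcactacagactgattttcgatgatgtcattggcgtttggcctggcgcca
skn-1 second summit: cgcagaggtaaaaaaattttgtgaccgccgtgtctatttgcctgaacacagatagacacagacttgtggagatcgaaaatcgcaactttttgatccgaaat
ftt-2 promoter: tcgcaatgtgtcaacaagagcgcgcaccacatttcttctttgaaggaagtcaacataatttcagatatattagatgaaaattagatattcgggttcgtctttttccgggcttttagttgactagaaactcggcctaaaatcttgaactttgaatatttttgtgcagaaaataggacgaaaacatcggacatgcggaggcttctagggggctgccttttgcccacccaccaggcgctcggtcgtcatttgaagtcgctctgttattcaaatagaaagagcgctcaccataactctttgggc

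The core was present once in the first, as ACGTG centred 33 bp from the summit, and in neither of the others. The replicate 1 summit of the second skn-1 peak, 92 bp from the pooled one, held GCGTG 6 bp from its own summit. The sequence at the strongest skn-1 summit also held TGTCAT, a form of the site that SKN-1 itself prefers. TGTCAT lay within 50 bp of 6.02% of the 631 thresholded summits and of 4.91% of flanks 500 bp away. ACGTG was present at 28.1% of the thresholded summits and GCGTG at 22.3%, and either of them at 45.8%, against 13.6% of flanks. Of the 3 thresholded summits at the 8 genes, 1 held the core within 50 bp, and 2 held it within 100 bp. At wdr-23 the nearest core was 61 bp away. At ftt-2 it was 961 bp away, a distance reached by 12 of the 612 nuclear thresholded summits (1.96%), whose median was 52.5 bp. GC content within 50 bp was 43.6% at skn-1, 41.6% at wdr-23 and 36.6% at ftt-2, against a median of 48.5% over nuclear thresholded summits.

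In the thresholded list, which holds the peaks that passed the authors' reproducibility filter, 3 of the 8 genes had a summit in their window, against 5.72% of protein-coding genes. These were skn-1, ftt-2 and wdr-23, with 1 summit each. In the promoter window, which began 1000 bp before the gene start and ended 200 bp after it, wdr-23 and ftt-2 had one, against 1.97% of protein-coding genes. The windows of the 8 genes ran from 6875 bp at gst-4 to 52333 bp at daf-2, against a median of 8026 bp, so that the longer genes had more room for a summit. The lowest signal value in the thresholded list was 54.1, and the highest left out of it was 54.05. The summits of the 8 genes nearest to that limit from above and below were that of wdr-23 with 93.3 and the weaker ftt-2 promoter summit with 52.8.

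The strongest peak was at skn-1, inside the gene (chromosome IV, 5656139 to 5656250, summit at 5656154). The gene lies on the minus strand of chromosome IV from 5651039 to 5660384 and has 4 annotated isoforms, each with its own start. The peak had a signal value of 179 in the pooled reads, where it ranked 74 of 6541. It had 112.5 in replicate 1, with rank 57, and 69.5 in replicate 2, with rank 102, and the 3 summits lay within 12 bp of each other. The interval was 112 bp wide, whereas 571 of the 631 thresholded intervals were 444 bp wide. The summit fell in the long first intron of isoform T19E7.2a.1, 4230 bp downstream of the gene start, and 549 bp upstream of the start of isoform T19E7.2c.1. Thus it was outside the promoter window of the gene start and inside that of an isoform. With the starts of all transcripts counted, 3 of the 8 genes had a thresholded promoter summit, against 2.19% of protein-coding genes. Pooled summits so placed were found at 5 of the 8 genes, against 13.9%, and at 6 in either replicate list, against 23.3% and 22.2% in replicates 1 and 2. These counts grow with the number of starts, for which the shares over all genes were not matched. Distinct starts numbered 4 at skn-1, 5 at wdr-23, 7 at daf-16 and 7 at daf-2. The annotated starts of isoforms a, c and d are their first coding bases, so the true distances to the transcription starts are not known. By gene starts alone, the nearest protein-coding start to the summit was that of clec-178, a C-type lectin gene nested in skn-1 on the other strand.

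A second skn-1 summit lay 3031 bp downstream of the gene start in the same intron (chromosome IV, 5657131 to 5657574), with 48.6 in the pooled reads. Its nearest replicate summits ranked 463 in replicate 1, at 92 bp, and 9559 in replicate 2, at 22 bp, so that it stood far higher in the first than in the second. It fell inside T19E7.26, an annotated noncoding RNA gene, 35 bp from its start. Of the other 4 pooled summits, 1 with 34.96 lay in a coding exon, 13 bp inside the start of isoform T19E7.2d.1, and the others had 22.8, 22.5 and 21.4. None of these 4 had a summit of both replicates within 100 bp. The one with 22.5 was the only pooled summit at the gene start, 149 bp upstream of isoform a, and it held GCGTG 33 bp from its summit. Replicate 2 had a counterpart there (15.6, rank 3021), whereas the nearest summit of replicate 1 was 1638 bp away. The skn-1 window held 6 pooled summits, or 3.91 per 10 kb against 0.596 per 10 kb over chromosome IV. At ftt-2 it was 3.89 against 0.769 over its chromosome, and at wdr-23 3.21 and daf-16 1.86, each against 0.604. At daf-2 it was 0.382 against 0.715, and gst-4, gcs-1 and sod-3 had no pooled summit. Windows with 6 or more were found at 121 of the 19985 protein-coding genes (0.605%), daf-16 included. This share was not matched for length, and the skn-1 window had 15346 bp against a median of 8026 bp.

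**Figure D1:**
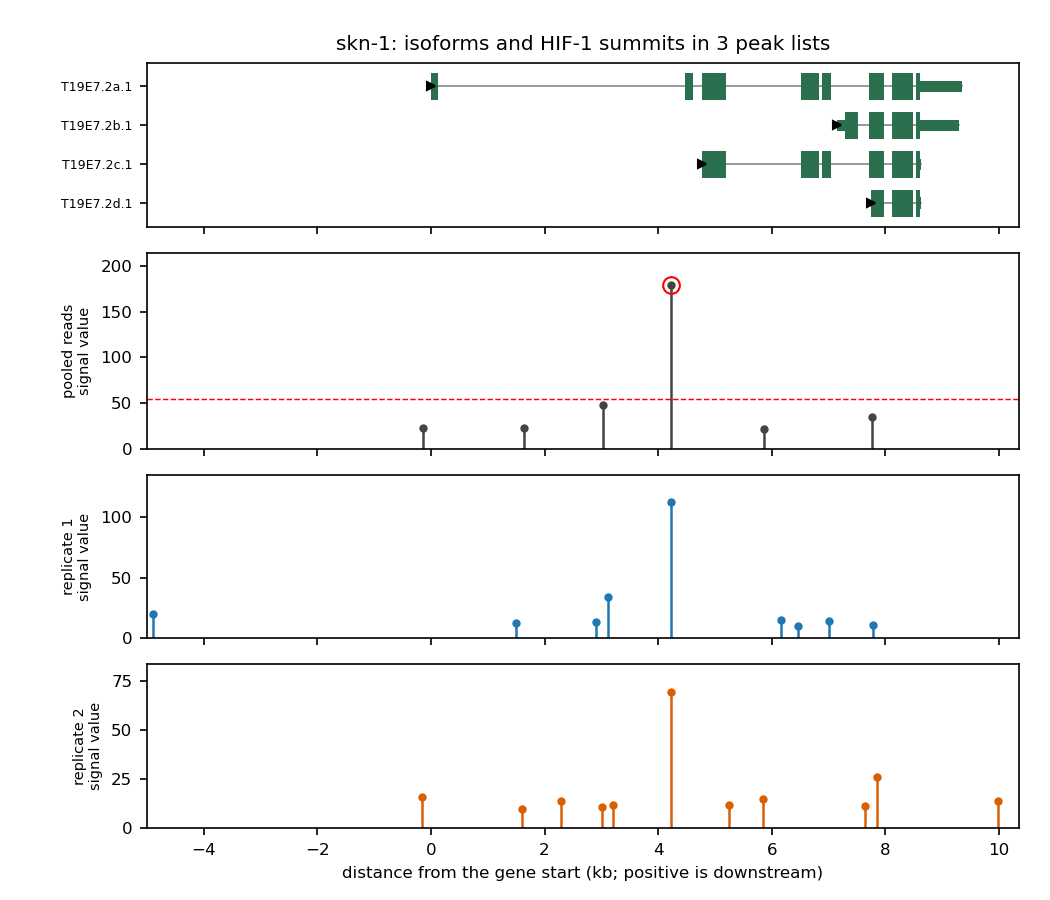
Isoforms of skn-1 (top; thick boxes coding, thin boxes untranslated, arrowheads starts) and the signal value of each summit in the pooled, replicate 1 and replicate 2 lists, against distance from the gene start in kb. The red circle marks the thresholded summit and the dashed line the lowest thresholded signal value of 54.1. In all 3 lists the tallest summit lies about 4.2 kb into the gene, just before the start of isoform c, with 179, 112.5 and 69.5.

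At wdr-23 the thresholded peak lay on the gene start (chromosome I, 7595667 to 7596110). The gene is on the plus strand of chromosome I from 7595776 to 7602221, with 6 isoforms and 5 distinct starts. The summit, with 93.3 in the pooled reads and rank 215, was 113 bp downstream of the start of isoform D2030.9a.2, in its 5′ UTR. The other starts were 729 to 2577 bp downstream of that one. Replicate 1 had a pair of summits of like size at this place, 63.3 at 90 bp upstream (rank 143) and 54.9 at 109 bp downstream (rank 192). Replicate 2 had a summit of 38.9 at 164 bp downstream (rank 292). The upstream summit of replicate 1 held GCGTG within 50 bp and had no counterpart in replicate 2 within 100 bp, the nearest being 254 bp away. The pooled summit held TGCGTC, which was present at 15.2% of thresholded summits and 1.27% of flanks, and no core. The other 3 pooled summits in the window had 22.97, 23.03 and 23.7, and none had a summit of both replicates within 100 bp. The last of them, 965 bp into the gene, was the nearest pooled summit to the starts of all other isoforms.

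At ftt-2 both strong summits were upstream of the gene, which is on the minus strand of the X chromosome from 11603708 to 11605419. The thresholded one (11605794 to 11606237) had 150.6 in the pooled reads and rank 96, and lay 597 bp upstream of the start of isoform F52D10.3c.1. It had 80.4 and rank 99 in replicate 1, and 71.3 and rank 94 in replicate 2, which made it the most evenly ranked of the 3 thresholded summits. The weaker summit, 796 bp upstream, had 52.8 and rank 664 in the pooled reads. It ranked 2186 in replicate 1 with 17.01 and 313 in replicate 2 with 37.97, although the summits of both replicates were within 7 bp of the pooled one. It was thus among the 631 strongest of replicate 2 and not of replicate 1. The space between the summits and the gene holds annotated noncoding RNA genes. The thresholded summit was 27 bp upstream of the start of F52D10.7, and the weaker summit fell inside F52D10.9, so that assignment to ftt-2 rests on protein-coding genes being considered alone. The remaining pooled summit (27.03) lay 154 bp past the gene end, and the nearest replicate summits were 202 bp away in replicate 1 and 36 bp away in replicate 2.

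**Figure D2:**
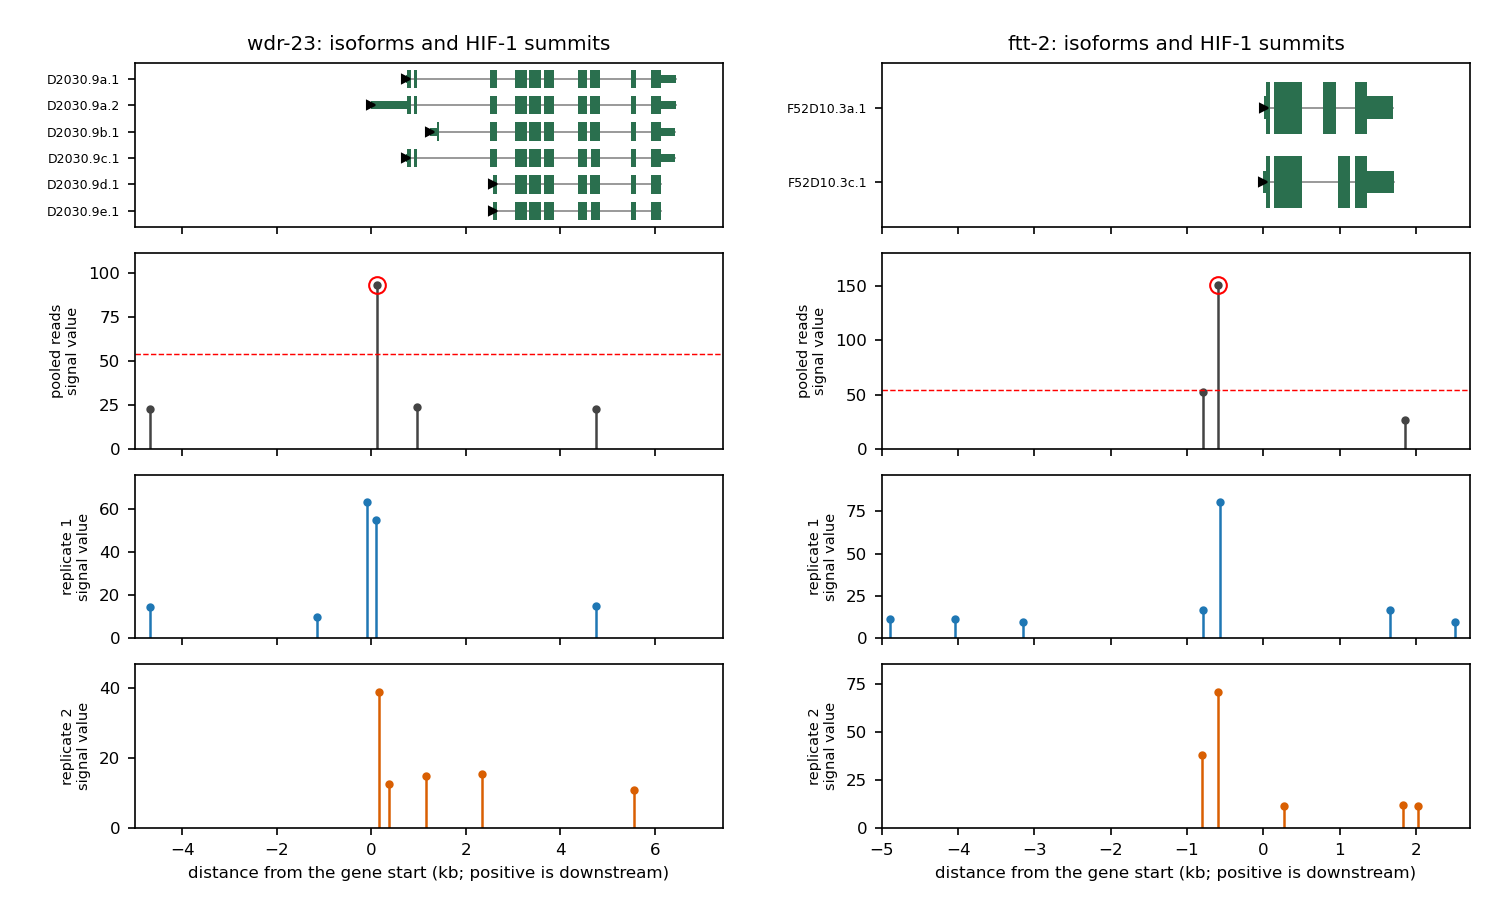
Isoforms of wdr-23 (left) and ftt-2 (right) above the signal value of each summit in the pooled, replicate 1 and replicate 2 lists, against distance from the gene start in kb, drawn as for skn-1. The circled thresholded summits lie 113 bp past the wdr-23 start (93.3) and 597 bp before the ftt-2 start (150.6), and the second ftt-2 summit (52.8) is just under the dashed line.

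No thresholded summit was found in the daf-16 window, and the nearest to the gene start was 173.2 kb away. The gene spans 26206 bp on the plus strand of chromosome I (10750498 to 10776703) and has 11 isoforms with 7 distinct starts, all annotated from the first coding base. The pooled list held 6 summits, with signal values of 35.8, 34.5, 29.5, 28.7, 26.9 and 26.1, which ranked from 1457 to 3364 of 6541. The strongest (35.8) lay in a 3′ UTR exon, 25907 bp downstream of the gene start, with ranks of 2825 and 1247 in replicates 1 and 2. The next (34.5) lay 2006 bp upstream of the gene, with ranks of 1137 and 10513. Of the 6, these and the one with 26.1 in an intron had summits of both replicates within 100 bp, the last with ranks of 2221 and 8106.

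Only the summit with 26.9 lay in the promoter window of the daf-16 gene start, 399 bp upstream of isoform R13H8.1h.1, and 12.2% of protein-coding genes had a pooled summit so placed. It held GTAAACA, the sequence that DAF-16 itself recognises, which was present at 1.21% of all 6541 pooled summits and at 1.28% of their flanks. The summit of replicate 2 was 5 bp away and that of replicate 1 was 102 bp away. It also fell inside H36N01.1 and H36N01.4, annotated noncoding RNA genes. Isoforms b and c, which start at 12605 bp, had a summit of 20.6 at 198 bp upstream in replicate 2 (rank 1286), with the nearest of replicate 1 1208 bp downstream. Isoform R13H8.1e.1 had the pooled summit of 28.7 at 685 bp upstream, and replicate 1 had a summit 5 bp from it. Replicate 2 had a summit of 10.7 (rank 10174) nearer to that isoform, at 87 bp upstream. None of the 6 pooled summits held the core within 50 bp, which 24.5% of all pooled summits did.

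The insulin receptor gene daf-2 spans 46333 bp on the minus strand of chromosome III (2994514 to 3040846), with 7 isoforms and 7 distinct starts, and had no thresholded summit within 254.8 kb of its start. Its window held 2 pooled summits, which is 0.382 per 10 kb against 0.715 over chromosome III. The stronger (40.01, rank 1152) lay in an intron of the isoforms that start further upstream, 309 bp upstream of isoform Y55D5A.5d.1. Replicate 1 had a summit of 16.08 (rank 2549) at 181 bp upstream of that isoform and replicate 2 one of 23.9 (rank 873) at 361 bp upstream. The annotated start of that isoform is its first coding base, so the true distances to its transcription start are not known. The weaker (27.6, rank 2881) lay in a coding exon 28271 bp downstream of the gene start, with a summit of replicate 2 at 2 bp (rank 1318) and the nearest of replicate 1 at 340 bp (rank 11600). Neither had summits of both replicates within 100 bp, and no pooled summit lay in the promoter window of the gene start. The sequences around both are shown because the core was in the weaker and not in the stronger. They are chrIII:3023356-3023456 and chrIII:3012525-3012625, plus strand of ce11, with the core of either strand in capitals.
daf-2 intron summit: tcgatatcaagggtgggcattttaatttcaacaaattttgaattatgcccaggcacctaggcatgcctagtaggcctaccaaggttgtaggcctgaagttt
daf-2 coding exon summit: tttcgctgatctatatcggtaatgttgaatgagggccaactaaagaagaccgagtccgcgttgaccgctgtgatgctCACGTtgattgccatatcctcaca

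**Figure D3:**
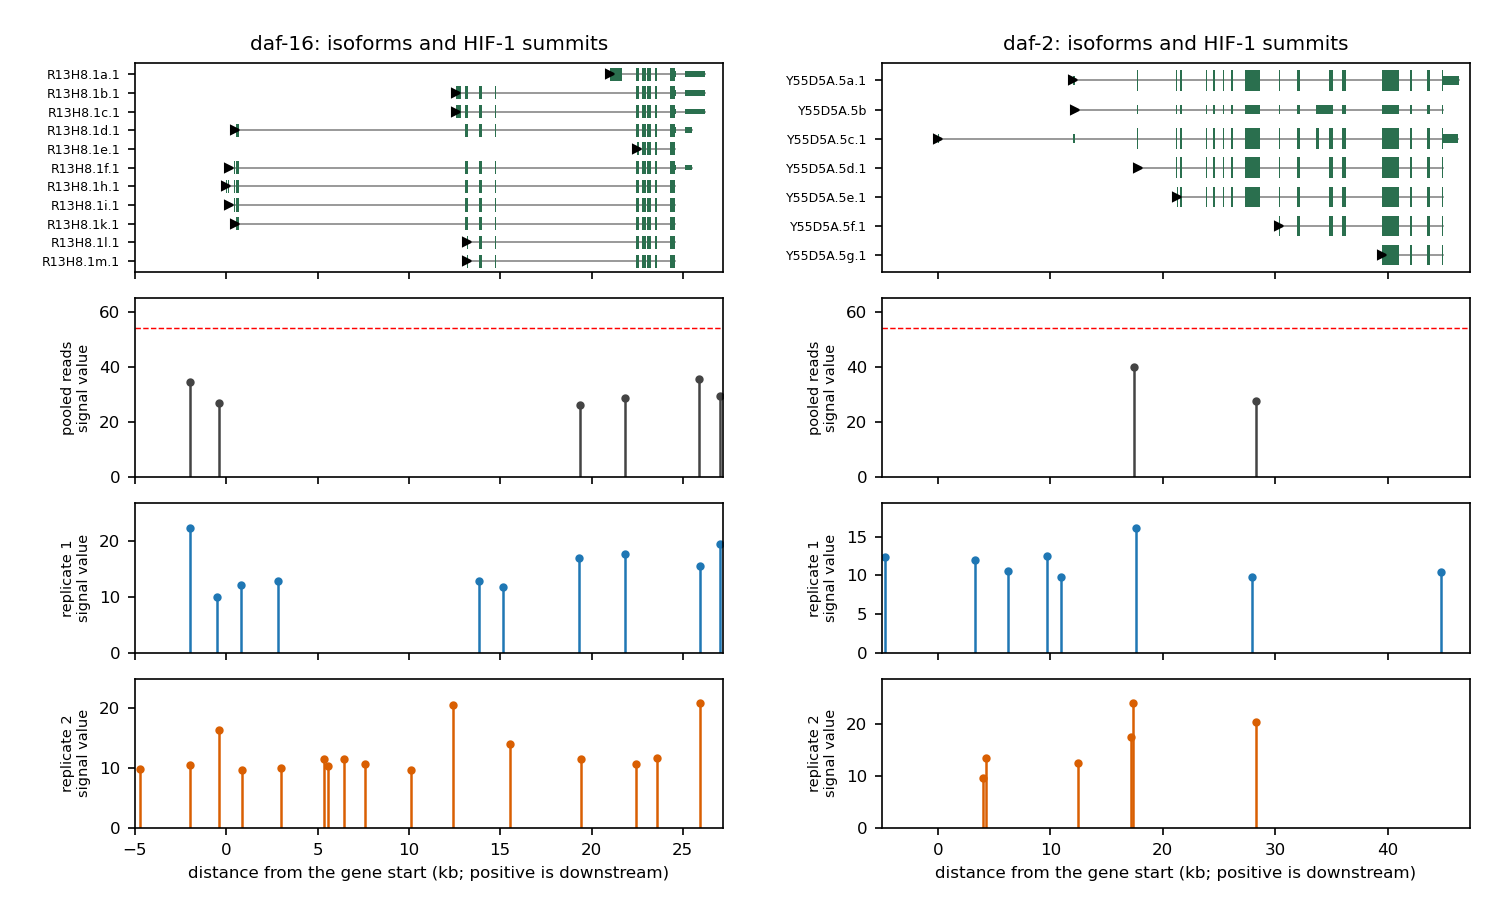
Isoforms of daf-16 (left) and daf-2 (right) above the signal value of each summit in the pooled, replicate 1 and replicate 2 lists, against distance from the gene start in kb. All 8 pooled summits lie under the dashed line, which is the lowest thresholded signal value (54.1), the highest being 35.8 at daf-16 and 40.01 at daf-2.

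The readout genes had the fewest summits. Their windows were of 6875 bp at gst-4, 8740 bp at gcs-1 and 7554 bp at sod-3. That of ftt-2 was of 7712 bp, and those of the other regulators were of 12446 bp or more. Over all protein-coding genes, 39.6% had a pooled and 5.72% a thresholded summit in the window, so most had none. Neither gst-4 (chromosome IV, 10142225 to 10143099, plus strand), gcs-1 (chromosome II, 9035562 to 9038301, minus strand) nor sod-3 (chromosome X, 17092753 to 17094306, plus strand) had a thresholded or pooled summit in its window. At gst-4 replicate 2 had 1 summit, 46 bp upstream of the start, with 13.5 and rank 4897 of 13823, and the nearest of replicate 1 was 7668 bp from the start. The place also lies in the promoter windows of gst-2 and dhs-12, genes named after their positions were seen. At gcs-1 replicate 1 had a summit 200 bp upstream, with 11.2 and rank 7767 of 13935, and another of 10.2 in the 3′ UTR, and the nearest of replicate 2 was 5697 bp from the start. A summit lay in the promoter window of 20.5% of protein-coding genes in the list of replicate 1 and of 19.7% in that of replicate 2. At sod-3 no list held a summit in the window. The nearest were 6.08 kb away in replicate 1, 14.98 kb in replicate 2, 23.97 kb in the pooled list and 162.8 kb in the thresholded list.

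The gst-4 and gcs-1 promoter sequences at these summits are shown for comparison with the peak at skn-1, since neither held the core. They are chrIV:10142129-10142224, which ends at the base before the gene start, and chrII:9038451-9038551, both on the plus strand of ce11. The first held TGTCAT in reverse, as atgaca, and the nearest core was 799 bp from its summit. For the second it was 233 bp.
gst-4 promoter: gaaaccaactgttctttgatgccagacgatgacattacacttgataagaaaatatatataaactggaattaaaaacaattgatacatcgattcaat
gcs-1 promoter: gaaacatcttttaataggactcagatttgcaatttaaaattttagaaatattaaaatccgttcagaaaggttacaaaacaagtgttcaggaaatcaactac

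**Figure D4:**
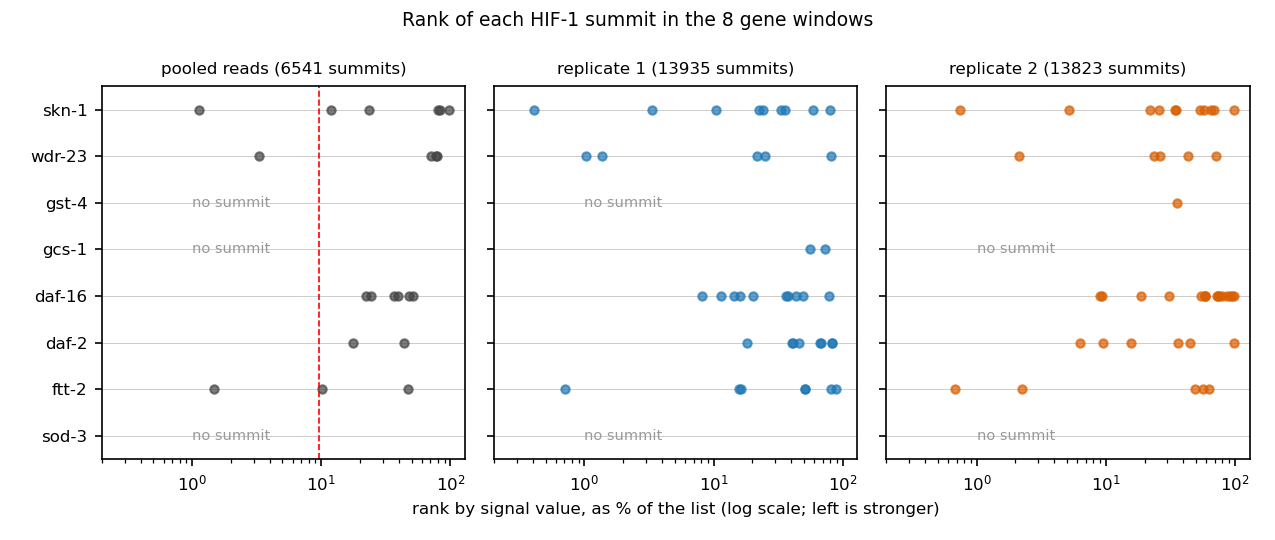
Rank of every summit in the windows of the 8 genes, as a percentage of its list (log scale, left is stronger), for the pooled, replicate 1 and replicate 2 lists. Left of the dashed line lie the 631 strongest pooled summits, which are the thresholded ones. skn-1, wdr-23 and ftt-2 each have 1 pooled summit there, daf-16 and daf-2 have only weaker ones, and gst-4, gcs-1 and sod-3 have none in the pooled list.

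All 3 thresholded summits had summits of both replicates within 100 bp, as did 94.5% of the 631 in that list. Of the 21 pooled summits at the 8 genes, 8 had a summit of both replicates within 100 bp (38.1%), against 46.2% over the pooled list. Among the 18 that were not thresholded the share was 5 of 18 (27.8%), against 41.05% of all such summits. Of the 41 summits of replicate 1, 12 (29.3%) had one of replicate 2 within 100 bp, against 22.7% of that whole list, and of the 44 of replicate 2, 12 (27.3%) had one of replicate 1, against 22.9%. By gene, 5 of the 10 daf-16 summits of replicate 1 were shared, 4 of 9 at skn-1, 2 of 7 at ftt-2, 1 of 5 at wdr-23, 0 of 8 at daf-2 and 0 of 2 at gcs-1. Of the 21 pooled summits, 7 were in introns, 5 in coding exons, 2 in UTR exons and 7 outside protein-coding genes. Shares of these places over the whole list were not computed. The coding exon 4686 bp upstream of wdr-23 belongs to a neighbouring gene, and an intron summit of skn-1 also lay in an intron of clec-178. The core was within 50 bp of 5 of the 21, against 24.5% of all pooled summits.

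**Figure D5:**
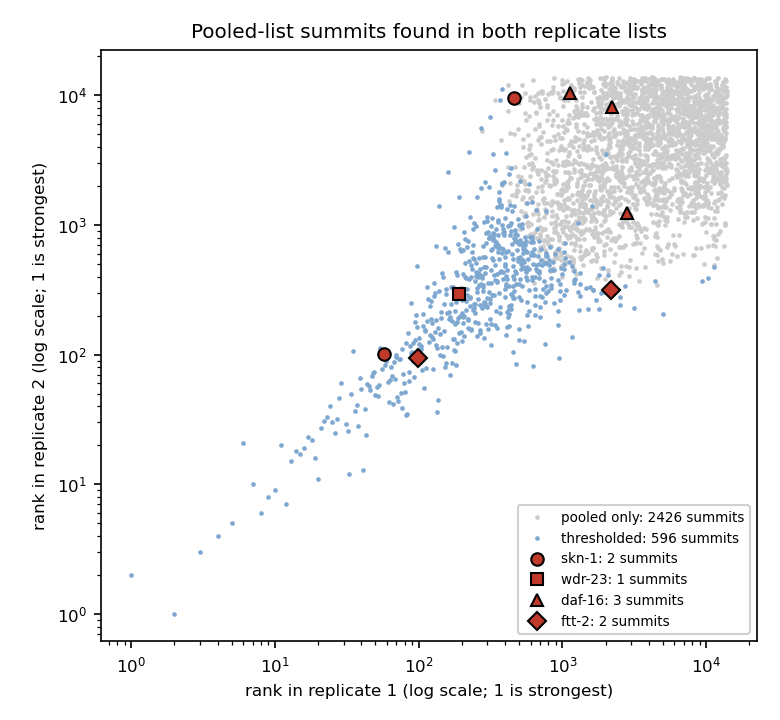
Rank in replicate 2 against rank in replicate 1 (log scales, 1 is strongest) for the pooled-list summits with a summit of both replicates within 100 bp, grey where not thresholded and blue where thresholded. Red symbols are the 8 such summits at skn-1, wdr-23, daf-16 and ftt-2. The strongest skn-1, wdr-23 and ftt-2 summits have like ranks in both replicates, and the other 5 lie further from the diagonal.

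Other genes of both pathways were taken from 5 lists, and summits were counted in the promoter window of the gene start. Without the 8 genes, 2 of the 93 further genes had a thresholded summit (2.15%, against 1.97% of protein-coding genes) and 19 a pooled one (20.4%, against 12.2%). Both thresholded genes were of the 15 glutathione and SKN-1-dependent detoxification genes other than gst-4 and gcs-1. One was nit-1, a nitrilase family gene, with 99.5 at 134 bp upstream, ranks of 245 and 179 in replicates 1 and 2, and the core within 50 bp. The other was dhs-8, a short-chain dehydrogenase gene, with 59.4 at 889 bp upstream, ranks of 532 and 609, and no core. In this list 6 of 15 had a pooled summit. After nit-1 and dhs-8 the strongest were gst-7, a glutathione S-transferase gene (43.2), gsr-1, which encodes glutathione reductase (32.5), and the glutathione synthetase gene gss-1 (28.9).

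Among 16 further upstream regulators of SKN-1 there were 0 with a thresholded summit and 3 with a pooled one. These were xrep-4, which encodes an F-box protein known to regulate SKN-1 (30.3), cul-4, the cullin of the WDR-23 ligase (29.9), and the kinase gene akt-2 (24.4). The core was within 50 bp of the summits of xrep-4 and cul-4 and not of akt-2, and 24.5% of all pooled summits held it. Of 26 further insulin pathway genes 0 had a thresholded summit and 3 a pooled one, which were par-5 (34.2), the paralogue of ftt-2, akt-2 and smk-1, which encodes a nuclear cofactor of DAF-16 (23.3, named after its value was seen). Of 19 further superoxide, peroxide and thioredoxin enzyme genes 0 had a thresholded summit and 2 a pooled one, the peroxidase gene gpx-1 (48.3) and the peroxiredoxin gene prdx-3 (21.9). Of 23 further genes described as dependent on DAF-16, 0 had a thresholded summit and 6 a pooled one, led by dod-3 (36.3), the metallothionein gene mtl-1 (29.2) and the small heat shock gene sip-1 (28.8). Over the 19 genes with a pooled promoter summit the median signal value of the strongest was 29.2, and it was 29.4 over all 2434 protein-coding genes with one. At 9 of the 19 genes the strongest had a summit of both replicates within 100 bp, as did 46.2% of the pooled list. Those of gsr-1, xrep-4, akt-2, smk-1, prdx-3, dod-3 and sip-1 did not. The replicate summits nearest to that of sip-1 ranked 743 and 12568. The core was within 50 bp of the strongest promoter summits of gss-1, mtl-1 and sip-1 as well. The lists share members, akt-2 among them, so a gene can count in 2 lists.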

How the data were processed

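The series is HIF-1 ChIP-seq of whole worms, 1 group with 2 biological replicates. Per the deposited descriptions, the authors made relaxed lists of peaks with background from either replicate and from both pooled, with 1 control in each, and a thresholded list of peaks that passed irreproducible discovery rate analysis. The labels and deposited descriptions name no aligner, peak caller or threshold. Each deposited list holds a signal value per peak, a −log10 q-value, and a summit offset from the peak start, as other information. The q-value was not used to choose summits. In the pooled list −log10 q was at its ceiling of 2.11 at all thresholded summits of the 8 genes. The weaker ftt-2 promoter summit was at the ceiling too, and the second skn-1 summit was at 2.02. All other pooled summits of these genes had 1.46 or less. At the skn-1 gene start it was 0.0624 and at the daf-16 promoter summit 0.255. At the promoter summits of gst-4 in replicate 2 and gcs-1 in replicate 1 it was 0.216 and 0.112. Depth is unknown. The lists on ce11 were used, and those on ce10 were not used here. All ce11 peaks lay within the chromosome lengths of WBcel235.

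Summits were placed on Ensembl release 115 gene models (Python 3.11.15, pandas 2.3.3, numpy 2.4.6). Distances are from the gene start, the outermost annotated start, and coordinates are 1-based. Motifs were searched on both strands, wholly within 50 bp of the summit: the core (ACGTG or else GCGTG), its palindrome CACGTG, which holds ACGTG on both strands, the DAF-16 site GTAAACA, the SKN-1 site in the forms TATCAT plus TGTCAT, and, as frequent at all summits, TGCGTC together with GAGAGA. At the 3 thresholded summits of the 8 genes CACGTG was in none, nor was GAGAGA or the DAF-16 site, and TATCAT was in 1. No test was made, since there is 1 group. The 8 genes and the lists were chosen with earlier results of these data known. Named genes are these 8, genes whose starts are nearest to their thresholded summits, and list genes with a thresholded promoter summit or among the 3 strongest other pooled ones in a list. Outside this rule gst-2, dhs-12, smk-1, gpd-2 and noncoding RNA genes at the summits were named after their values or positions were seen. Of 102 listed names, 1 (dod-8) matched no annotated gene. The counting steps were tested on simulated data. Sequences of chromosome I are not shown.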

Additional observations from a re-analysis of the deposited data

How the results depend on the processing

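Of 63 recomputed counts over 11 results, 47 stayed within 1.5 times of the value reported. With promoters narrowed to 500 bp before and 100 bp after the start, 0 of the 8 genes, 0 SKN-1 regulators, 0 insulin pathway genes and 1 detoxification gene (nit-1) had a thresholded summit, because the wdr-23, ftt-2 and dhs-8 summits, at 113 bp downstream, 597 bp upstream and 889 bp upstream, fall outside it. With promoters of 2000 bp before and 500 bp after it there were 2 insulin pathway genes (ftt-2 and smk-1) and 1 DAF-16-dependent gene (gpd-2, named after its value was seen). With all transcript starts there were 2 SKN-1 regulators, skn-1 and wdr-23. In the stronger 50% of the thresholded list 1 detoxification gene remained. Counting only summits whose nearest protein-coding start was the gene's own left 11 pooled summits, 5 of them in both replicates, and 0 thresholded summits with the core. The core was at 0 of the 3 thresholded summits within 25 bp and at 2 within 100 bp. With a distance of 50 bp between replicates 5 pooled summits were shared.

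From the 631 strongest peaks of 1 replicate alone, the windows held 4 summits without replicate 1 and 5 without replicate 2, of which 1 and 3 held the core, and skn-1, wdr-23 and ftt-2 were the genes with one in both. The 2 genes with a promoter summit were the same, and the counts of the 5 lists stayed at 1, 2, 0, 1 and 0. From the 6541 strongest peaks of 1 replicate, as many as the pooled list holds, the windows held 22 summits without replicate 1 and 26 without replicate 2. No paired analysis was possible because there is 1 group. The lists hold no depth, so a gene with no summit may lie under the lists' lower limits of signal, which are 9.11 and 9.57 in the replicates and 21.2 in the pooled reads.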
